A study of Mus musculus with 10 samples.

Results

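The genes described here encode the enzymes that attach glutathione, glucuronic acid or sulfate to reactive and foreign compounds, or that hydrolyse, oxidise or reduce esters, epoxides and carbonyls. They were chosen by symbol from the platform's probe-to-gene table: glutathione transferases (Gst classes alpha, omega, pi, mu, theta, zeta and kappa), microsomal glutathione transferases (Mgst), UDP-glucuronosyltransferases (Ugt), sulfotransferases (Sult), carboxylesterases (Ces), aldehyde dehydrogenases (Aldh), aldo-keto reductases (Akr) and epoxide hydrolases (Ephx). Of the 12393 genes measured, 83 were members: 18 Gst, 3 Mgst, 9 Ugt, 11 Sult, 9 Ces, 17 Aldh, 14 Akr and 2 Ephx genes. A gene was represented by its probe set with the highest mean, and 24 members had more than 1 probe set. The symbol rule used no measured difference between groups.

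RNA was hybridised to 10 Affymetrix mouse 430A 2.0 arrays, 2 for each of 5 groups of small-intestinal epithelial cells from C57BL/6 mice. ISC were Lgr5-positive stem cells, purified by flow cytometry from Lgr5-eGFP-Cre mice through their green fluorescent protein. Rbpj Sec-Pro were crypt cells of mice in which Rbpj, the DNA-binding partner of Notch, had been deleted, and DBZ Sec-Pro were crypt cells of mice given Dibenzazepine, a Notch inhibitor. Both were prepared to enrich secretory progenitors. Ent-Pro and ENT were the crypts and the villi of Atoh1-/- mice, taken to lack secretory cells, and stand for enterocyte progenitors and mature enterocytes. The Cre driver of the Rbpj and Atoh1 deletions, the dose and duration of Dibenzazepine and the ages of the mice were not given in the sources used here. Apart from the ISC, the preparations were described as enriched or isolated crypts and villi and not as sorted cells. In such bulk RNA, fewer cells of a type and less RNA per cell cannot be told apart. Whether the arrays within a group came from different mice is not stated in the labels; the p-values therefore cover only the spread between these arrays, and that spread may be technical.

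Detoxification in the gut is usually described in steps. Hydrolases and oxidoreductases expose or remove a reactive group, transferases then couple the product to glutathione, glucuronic acid or sulfate, and carriers export the conjugate to the lumen or the blood. Many substrates are also made by the body: bile acids, steroids, retinaldehyde, and the aldehydes and epoxides that form when membrane lipids oxidise. In the small intestine these enzymes are known chiefly from the absorptive cells of the villus, which meet dietary and biliary compounds first.

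The group labels were checked against markers. Lgr5 read 11.36 and 11.06 in ISC and 6.31 to 8.80 elsewhere, all on the log2 scale. The mean of 8 stem cell markers was 10.52 and 10.37 in ISC and 9.01 and 8.89 in Ent-Pro. Not all of them separated these groups. Smoc2 read 11.78 and 11.49 in ISC and 11.38 and 11.42 in Ent-Pro, and Cdca7 11.12 and 10.68 against 11.07 and 11.31. Atoh1 read 5.75 and 5.78 in Ent-Pro and 4.97 and 5.18 in ENT, against 10.40 to 11.85 in both Sec-Pro groups. Rbpj lay at 6.74 and 6.62 after its deletion, at 8.26 and 8.31 in DBZ Sec-Pro, and no higher than 7.21 in ENT; the probe set's place relative to the deleted part was not known. The mean of 7 goblet markers was 13.22 to 13.74 in the Sec-Pro arrays and 6.38 to 6.78 in Ent-Pro and ENT. In ISC it was 11.10 and 11.29. The ISC arrays also carried Paneth markers (11.15 and 11.85 over 4 genes) and enteroendocrine markers (9.41 and 9.69 over 8 genes). Atoh1 read 7.68 and 7.80 there, so secretory signal was present in ISC. The mean of 10 enterocyte markers was also high in the Sec-Pro arrays, at 11.76 to 12.82, against 11.81 and 12.27 in Ent-Pro and 12.99 and 13.13 in ENT. Within Rbpj Sec-Pro the arrays differed in tuft markers (6.53 and 9.05 over 5 genes), in leukocyte markers (9.98 and 7.89 over 9 genes) and in stem cell markers (7.74 and 8.90 over 8 genes). Within DBZ Sec-Pro the stromal marker Dcn read 5.49 and 8.76 and the mean of 8 stromal markers 5.51 and 6.37, replicate 2 being the higher. The mean of 4 Paneth markers was 7.17 and 9.38 in ENT and 8.81 and 8.99 in Ent-Pro, where Lyz1 read 10.31 and 11.15. In the Sec-Pro arrays that mean was 12.86 to 13.83. Some Paneth signal was thus present in the Atoh1-/- groups. ISC replicate 1 carried a signal for the Y-linked Eif2s3y (8.96) that the other arrays lacked (3.52 to 3.71). The Y-linked Kdm5d (6.00 and 4.47) and Uty (5.76 and 4.04) were also higher on ISC replicate 1 than on replicate 2. Xist read 13.69 and 14.00 on these arrays, so the Y-linked signal came with high Xist. The source of this difference between the ISC arrays was not tested.

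Some of the start-site sequences are shown first because later results turn on these genes. They come from RefSeq on GRCm38.p6 and run from 250 bases before to 50 bases after an annotated start. Of the 83 members, 70 had at least 1 such window. Aldh1a1 and Aldh1a7 are neighbouring genes whose levels rose together from ISC to Ent-Pro. Their windows, chr19:20601718-20602017 on the plus strand and chr19:20727507-20727806 on the minus strand, were identical at 72.4% of 322 alignment columns. Capitals mark the longest run that both share, 65 bases that begin 94 bases before each start.
Aldh1a1: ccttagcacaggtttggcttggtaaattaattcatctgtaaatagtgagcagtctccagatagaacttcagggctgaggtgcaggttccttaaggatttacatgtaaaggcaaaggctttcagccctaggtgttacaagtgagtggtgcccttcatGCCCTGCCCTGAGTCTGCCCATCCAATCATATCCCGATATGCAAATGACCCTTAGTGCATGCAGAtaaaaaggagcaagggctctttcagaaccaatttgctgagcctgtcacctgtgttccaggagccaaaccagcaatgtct
Aldh1a7: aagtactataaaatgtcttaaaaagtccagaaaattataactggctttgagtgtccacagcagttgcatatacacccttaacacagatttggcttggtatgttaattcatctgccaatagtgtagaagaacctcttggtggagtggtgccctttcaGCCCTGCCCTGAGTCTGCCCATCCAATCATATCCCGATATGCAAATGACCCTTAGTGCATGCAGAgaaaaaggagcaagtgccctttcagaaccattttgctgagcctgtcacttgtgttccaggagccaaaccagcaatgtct

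Gsta2 and Gsta3 are alpha-class transferases that differed between the Sec-Pro groups, and Sult1b1 rose in both steps from ISC to ENT. Each window below holds a match, in capitals, to a letter pattern searched on both strands. The patterns were TGACNNNGC, the core of the antioxidant response element, GCGTG, the core of the dioxin response element, CAAAGTCCA for HNF4 and the HNF1 consensus. The Gsta2 window (chr9:78347096-78347395, minus strand) holds GCGTG, the Gsta3 window (chr1:21240335-21240634, plus strand) holds TGACNNNGC, and the Sult1b1 window (chr5:87536173-87536472, minus strand) holds CAAAGTCCA after the start. Only these matches are capitalised. The Sult1b1 window also holds GCGTG, which is left in lower case.
Gsta2: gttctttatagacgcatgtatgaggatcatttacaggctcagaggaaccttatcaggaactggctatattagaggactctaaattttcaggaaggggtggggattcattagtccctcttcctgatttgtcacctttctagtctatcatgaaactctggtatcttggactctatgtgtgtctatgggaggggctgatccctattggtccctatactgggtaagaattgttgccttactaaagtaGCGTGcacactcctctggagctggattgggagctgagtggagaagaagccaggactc
Gsta3: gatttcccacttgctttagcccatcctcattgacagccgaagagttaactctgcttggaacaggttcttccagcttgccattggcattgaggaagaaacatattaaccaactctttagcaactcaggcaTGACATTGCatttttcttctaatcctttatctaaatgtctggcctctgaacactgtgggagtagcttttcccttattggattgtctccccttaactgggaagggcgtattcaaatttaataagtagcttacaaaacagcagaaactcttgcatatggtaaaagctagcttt
Sult1b1: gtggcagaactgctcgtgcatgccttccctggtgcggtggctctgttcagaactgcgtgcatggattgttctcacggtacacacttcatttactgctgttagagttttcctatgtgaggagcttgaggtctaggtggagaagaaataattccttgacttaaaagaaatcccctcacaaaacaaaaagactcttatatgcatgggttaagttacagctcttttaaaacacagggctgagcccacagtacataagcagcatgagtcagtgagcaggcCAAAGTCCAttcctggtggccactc

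Over the 82 windows of the members, TGACNNNGC was found in 7 (8.54%), against 12.4% of all 32851 windows of the table. GCGTG was found in 21 (25.6%), against 32.4% of all windows. CAAAGTCCA was found in 1 member window (1.22%), against 0.475% of all windows, and the HNF1 consensus in 0 of 82, against 0.0609%. Matches of different patterns overlapped in 1 member window. The 7 genes with TGACNNNGC were Akr1cl, Aldh1a2, Aldh9a1, Gsta3, Gstm5, Gstm7 and Mgst1. A match describes letters and not a bound site, and windows without a match say nothing about a factor.

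**Figure D1:**
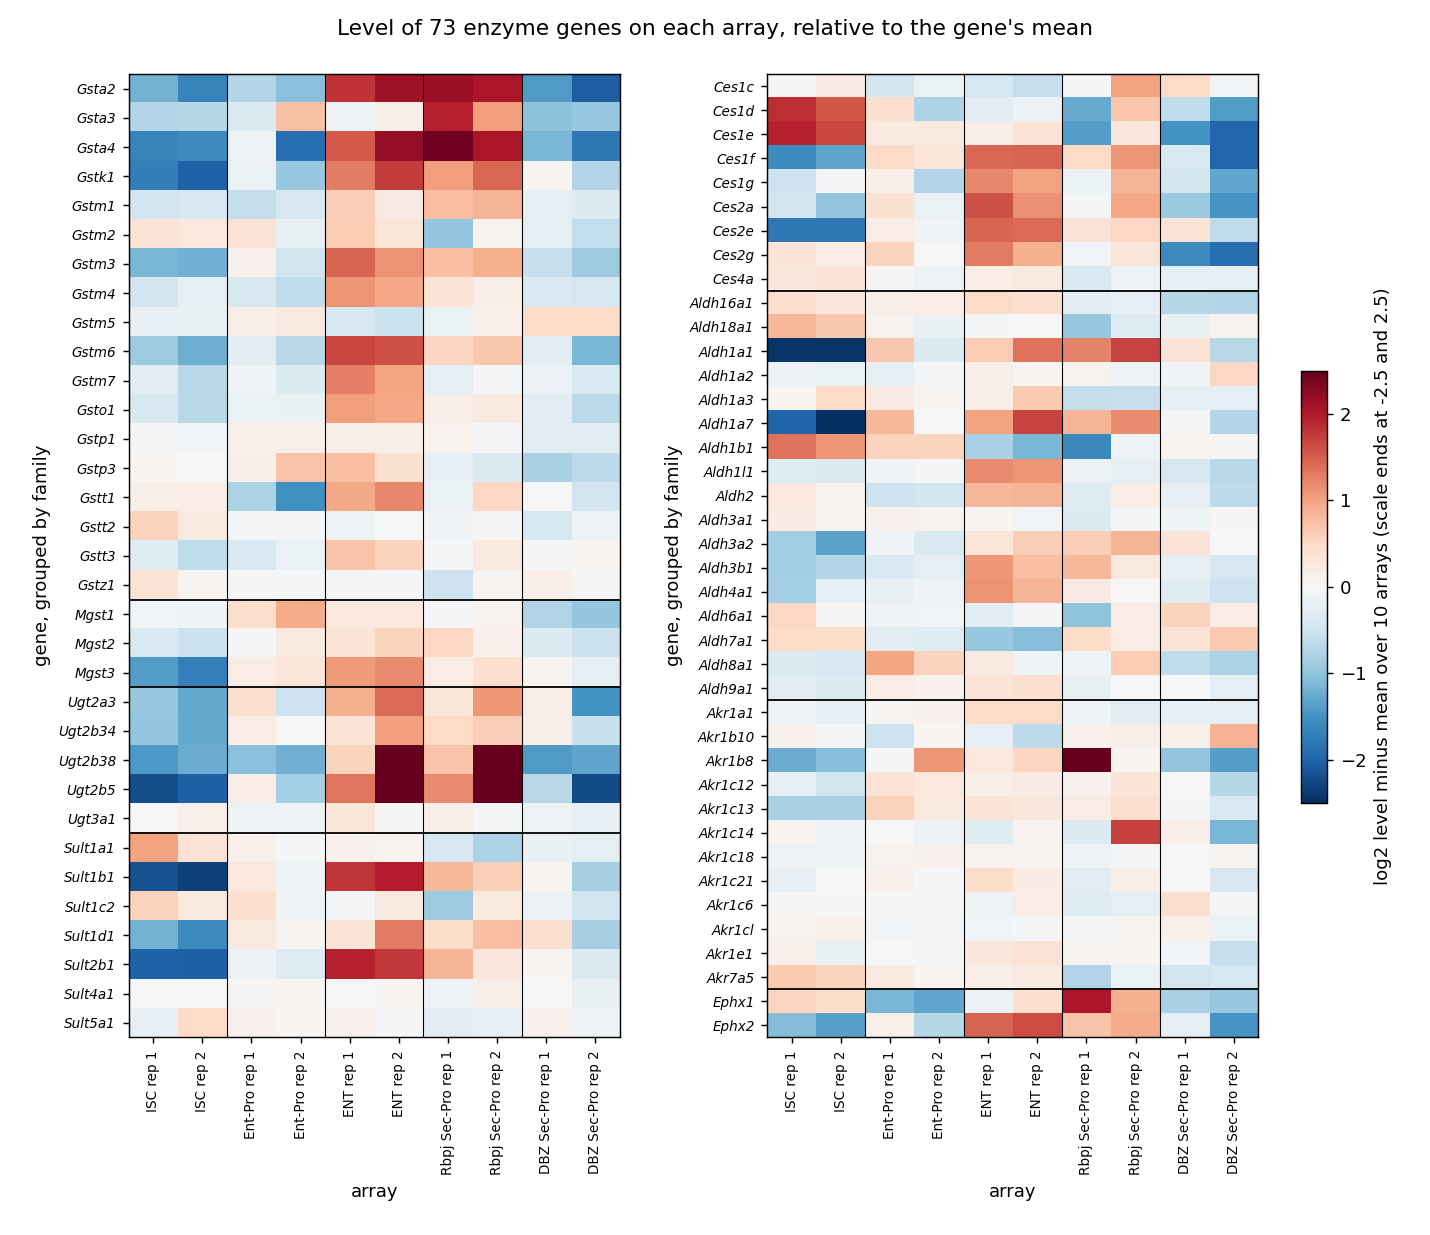
Level of each of the 73 members above background in at least 1 group, on each of the 10 arrays (columns), as log2 level minus the gene's mean over all arrays; horizontal lines separate families and vertical lines groups. Many rows are red in ENT and blue in ISC or DBZ Sec-Pro, with Ces1d, Ces1e and Aldh1b1 red in ISC.

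A level was taken as near background where every array of a group lay below a control-based floor of 4.70 to 5.05 (log2). By this measure 10 members were near background in all groups: Akr1c20, Akr1d1, Sult1c1, Sult1e1, Sult2a2, Sult3a1, Ugt2b1, Ugt2b37, Ugt3a2 and Ugt8a. The other 73 included every Gst, Mgst, Ces, Aldh and Ephx member. Across all 5 groups, 57 of the 83 members varied in limma's F test with Benjamini-Hochberg adjustment (threshold 0.05) (68.7%), close to the 66.1% of all genes. Of those 57, 34 had their highest group mean in ENT (59.6%), 9 in ISC, 9 in Rbpj Sec-Pro, 3 in Ent-Pro and 2 in DBZ Sec-Pro. Among all genes that varied, 32.2% were highest in ENT, 32.4% in ISC, 6.11% in Rbpj Sec-Pro and 15.7% in DBZ Sec-Pro. ENT was the leading group for 10 of 16 Gst genes that varied, 8 of 14 Aldh genes, 5 of 8 Ces genes and 3 of 5 Sult genes. These shares were not tested.

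From ISC to Ent-Pro, the 3 microsomal transferases rose, as did Aldh1a1 and Aldh1a7 among the aldehyde dehydrogenases and Sult1b1, Sult1d1 and Sult2b1 among the 11 sulfotransferases, while Ephx1 fell. Limma called 17 members higher in Ent-Pro, against 12.1% of all genes, and 7 lower, against 13.5%, which are 20.5% and 8.43% of the 83. The median log2 difference was 0.05 over the members and -0.02 over all genes. The members called higher came from Aldh (5), Mgst (3), Sult (3), Gst (2), Ces (2), Akr (1) and Ugt (1). Of the 17, 7 kept their call without each of the 10 arrays in turn: Akr1c13, Aldh1a1, Aldh1a7, Ces2e, Mgst3, Sult1b1 and Sult2b1. Of the 7 lower, Aldh7a1 and Ephx1 did. With each array left out, the members' median was 0.05 to 0.13, against -0.04 to 0.00 over all genes. Along with these genes, 9 of 10 enterocyte markers rose (median 2.35, log2) and 7 of 7 goblet markers fell (median -5.09). Stem cell markers fell in 5 of 8 cases (median -1.47). Paneth markers fell in 3 of 4 cases (median -2.76) and enteroendocrine markers in 7 of 8 (median -2.82). The part of such cell types in the members' differences was not tested.

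From Ent-Pro to ENT, both from Atoh1-/- mice, the members rose far more often than they fell. Limma called 29 of 83 higher in ENT (34.9%), against 18.5% of all genes, and 4 lower (4.82%), against 20.2%. The median log2 difference was 0.26, against 0.02 over all genes. Of the 18 Gst genes 11 rose, with a family median of 1.04, and 4 of 9 Ces, 5 of 17 Aldh, 2 of 2 Ephx, 2 of 11 Sult and 2 of 9 Ugt genes rose. Of the 29, 20 kept their call without each array in turn, as did Aldh7a1 and Gstm5 of the 4 lower genes. The members' median was 0.23 to 0.3 in these fits, against 0.00 to 0.04 over all genes. Enterocyte markers rose in 8 of 10 cases (median 0.97) and cell cycle markers fell in 7 of 7 (median -2.03). Tuft markers rose in 5 of 5 (median 3.63) and leukocyte markers in 5 of 9 (median 1.12); their part in the members' differences was not tested.

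Rbpj Sec-Pro and DBZ Sec-Pro were each set against Ent-Pro, so these comparisons share the Ent-Pro arrays. In Rbpj Sec-Pro 17 members were higher (20.5%), against 9.37% of all genes, and 7 were lower (8.43%), against 16.9%. Gst genes gave 9 of the 17. In DBZ Sec-Pro 1 member was higher (1.2%), against 8.84% of all genes, and 15 were lower (18.1%), against 9.77%. These 15 were 4 Ces, 4 Gst, 3 Aldh, 2 Mgst and 2 Akr genes. The median log2 differences were 0.04 for Rbpj Sec-Pro and -0.25 for DBZ Sec-Pro, against -0.12 and -0.08 over all genes. Enterocyte markers were higher in 6 of 10 cases in Rbpj Sec-Pro (median 0.68) and had a median of -0.15 in DBZ Sec-Pro. Paneth markers were higher in 4 of 4 cases in both groups (medians 4.10 and 4.85). Leukocyte markers were higher in 5 of 9 cases in Rbpj Sec-Pro (median 2.37) and 2 of 9 in DBZ Sec-Pro (1.84), and tuft markers in 2 of 5 (2.12) and 4 of 5 (2.87). Cell cycle markers were lower in 7 of 7 and 5 of 7 cases (-0.97 and -0.83). The part of these in the members' differences was not tested.

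Fewer of these calls held when arrays were left out. In Rbpj Sec-Pro against Ent-Pro, 4 of the 17 higher calls held without each array in turn (Ephx1, Gsta2, Gsta4 and Gstm1), and each of the 7 lower calls was lost without at least 1 array. With each array left out in turn, the members' median log2 difference was 0.01 to 0.11, against -0.13 to -0.11 over all genes. In DBZ Sec-Pro against Ent-Pro, 5 of the 15 lower calls held (Aldh16a1, Aldh8a1, Ces2g, Gstp3 and Mgst1). The members' median was -0.09 without DBZ Sec-Pro replicate 2, against -0.07 over all genes, and -0.37 without replicate 1, against -0.08. Scaling moved the split of calls over all genes: 35.7% of calls in Rbpj Sec-Pro were higher on the deposited values, 52.9% after cyclic loess and 26.6% after centring each array. For DBZ Sec-Pro these shares were 47.5%, 57.2% and 35.5%. The median over all genes in Rbpj Sec-Pro was -0.12 on the deposited values and -0.01 after cyclic loess, and no called member changed sign under either scaling in any of the 5 comparisons. With any single array left out, every called member also kept the sign of its difference in each of the 5 comparisons, whether or not its call held.

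Set directly against each other, the Sec-Pro groups differed in the conjugating enzymes. In DBZ Sec-Pro 26 members were lower than in Rbpj Sec-Pro (31.3%), against 7.08% of all genes, and 1 was higher (1.2%), against 9.34%. The median log2 difference was -0.37 over the members and 0.06 over all genes. The 26 were 9 Gst, 5 Aldh, 3 Ces, 2 Ephx, 2 Mgst, 2 Sult, 2 Ugt and 1 Akr genes. Of these, 7 held without each array in turn: Ces2g, Ephx1, Gsta2, Gsta3, Gsta4, Gstm1 and Gstm3. Without DBZ Sec-Pro replicate 2, the array of that group with the higher stromal signal, the members' median was -0.19, against 0.06 over all genes. Gstm5, the 1 gene called higher, lost its call without Rbpj Sec-Pro replicate 1 (log2 0.36). That call was also lost without either DBZ Sec-Pro or either Ent-Pro array (0.49 to 0.52). Fitted on the 4 arrays of these groups alone, 4 members were lower and 0 higher, against 54 and 43 of all genes. Enterocyte markers were lower in DBZ Sec-Pro in 4 of 10 cases (median -0.67), with list means of 12.32 and 11.76 against 12.82 and 12.63. The parts of enterocyte and stromal content in these differences were not tested.

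**Figure D2:**
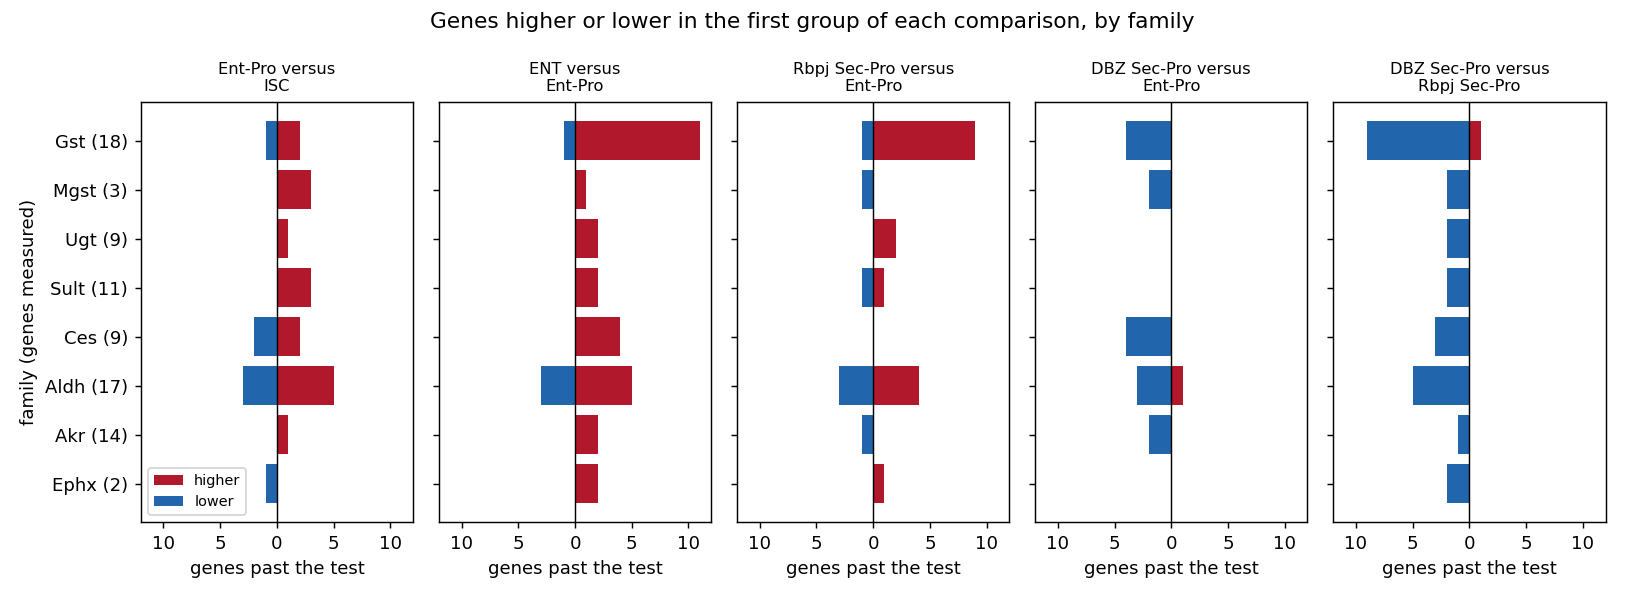
Number of genes in each family called higher (red, to the right) or lower (blue, to the left) in the first group of each of the 5 comparisons; the number of genes measured is beside the family's name. Gst genes give the longest bars: 11 higher in ENT, 9 higher in Rbpj Sec-Pro, and 9 lower in DBZ Sec-Pro than in Rbpj Sec-Pro.

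Alpha-class glutathione transferases gave the largest differences between the Sec-Pro groups. Gsta4, which conjugates hydroxynonenal from oxidised lipids, read 8.46 and 7.81 in DBZ Sec-Pro, and 12.03 and 11.63 in Rbpj Sec-Pro (log2 levels). In the other groups it read 7.93 and 8.02 in ISC, 9.46 and 7.71 in Ent-Pro, and 11.12 and 11.79 in ENT. Rbpj Sec-Pro and ENT were thus high and overlapped, while the other groups lay below both. Gsta4 was 12.9-fold lower in DBZ than in Rbpj Sec-Pro (log2 difference -3.69 ± 0.49, SE; limma adjusted p = 0.0044), 9.46-fold higher in Rbpj Sec-Pro than in Ent-Pro (adjusted p = 0.0039) and 7.3-fold higher in ENT than in Ent-Pro (adjusted p = 0.0018).

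Gsta2, another alpha-class enzyme, was likewise high in Rbpj Sec-Pro and ENT and low in the other groups. Its log2 level was 5.75 and 5.27 in ISC, 6.20 and 5.90 in Ent-Pro, 8.75 and 9.05 in ENT, 5.52 and 4.87 in DBZ Sec-Pro, and 9.07 and 8.98 in Rbpj Sec-Pro. The difference between DBZ and Rbpj Sec-Pro was 14.2-fold (log2 -3.83 ± 0.24; adjusted p = 0.00031), the widest of the 83 members. Gsta2 was 7.87-fold higher in Rbpj Sec-Pro (adjusted p = 2e-04) and 7.23-fold higher in ENT (adjusted p = 6.8e-05), each against Ent-Pro. Gsta3, known in mice for conjugating an aflatoxin epoxide, read 7.76 and 6.87 in Rbpj Sec-Pro, 4.79 and 4.88 in DBZ Sec-Pro, 5.49 and 6.55 in Ent-Pro, 5.72 and 5.97 in ENT, and 5.10 and 5.12 in ISC. It was highest in Rbpj Sec-Pro and did not share the high ENT level of Gsta2 and Gsta4. It was 5.59-fold lower in DBZ than in Rbpj Sec-Pro (limma adjusted p = 0.0053). Both DBZ values of Gsta3, and the 4.87 of Gsta2 in DBZ Sec-Pro replicate 2, lay within the range of the background floor (4.70 to 5.05). By the rule used here DBZ Sec-Pro was not near background for either gene, so these folds are not given as lower bounds. The differences of Gsta3 from Ent-Pro, 1.30 in Rbpj and -1.18 in DBZ Sec-Pro, passed the test. The first was lost without Rbpj Sec-Pro replicate 1 (0.85) or Ent-Pro replicate 1 (0.77), and the second without any 1 of 7 arrays, with -0.65 where Ent-Pro replicate 2 was left out.

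**Figure D3:**
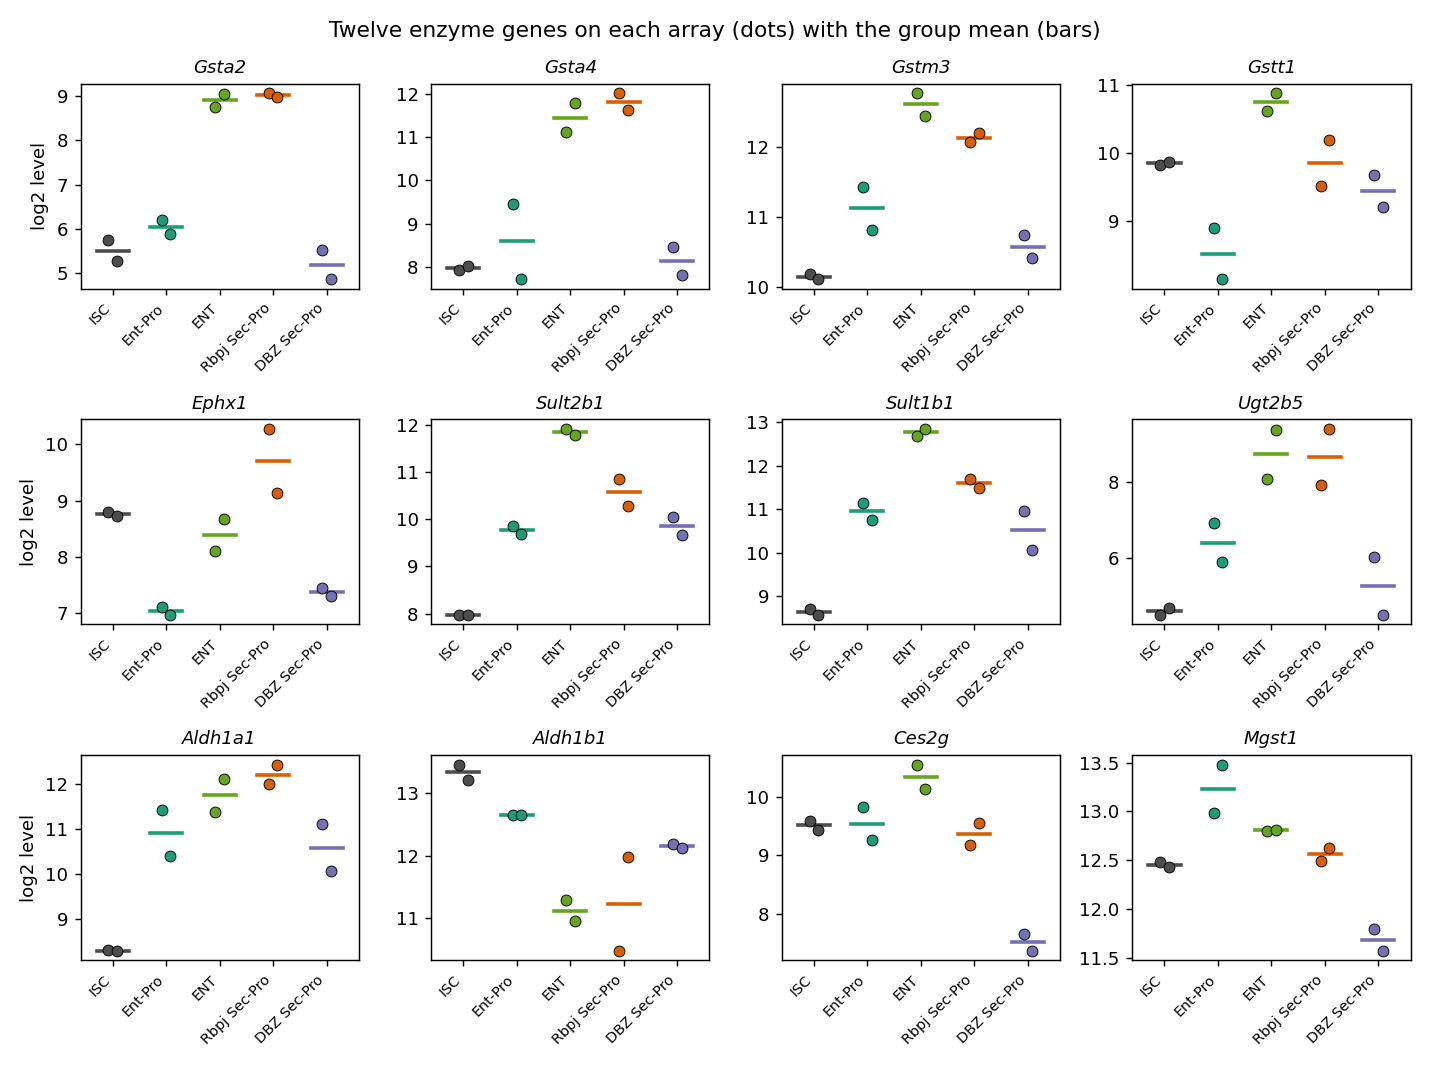
Log2 level (y axis, scaled per gene) of 12 members on each array (dots, 2 per group) with group means (bars). Gsta2 and Gsta4 are high in ENT and Rbpj Sec-Pro and low in the other groups, Ces2g and Mgst1 are lowest in DBZ Sec-Pro, and Aldh1b1 falls from ISC to ENT.

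The mu-class genes form a run of 7 neighbours in the RefSeq order on chromosome 3 (Gstm5, Gstm7, Gstm6, Gstm3, Gstm2, Gstm1, Gstm4), with no other protein-coding gene between them. They did not move as a block. From Ent-Pro to ENT, Gstm6 rose 4.36-fold (7.89 and 7.45 to 9.83 and 9.75; adjusted p = 0.00037), Gstm4 2.91-fold (7.34 and 7.11 to 8.84 and 8.71; adjusted p = 8.3e-05) and Gstm3 2.82-fold (11.43 and 10.82 to 12.78 and 12.45; adjusted p = 0.00065). Gstm7 rose 2.58-fold and Gstm1 1.88-fold, and these 5 calls held without each array in turn. A second, dimmer probe set of Gstm7 gave a log2 difference of -0.05. Gstm5, at 1 end of the run, went the other way, from 10.19 and 10.28 to 9.64 and 9.52 (log2 difference -0.66 ± 0.13; adjusted p = 0.0034). Gstm2 did not pass the test.

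Between the Sec-Pro groups Gstm5 was again opposite to Gstm1, Gstm3, Gstm4 and Gstm6, while Gstm7 and Gstm2 did not pass the test. It read 9.89 and 10.17 in Rbpj and 10.55 and 10.53 in DBZ Sec-Pro, the log2 difference of 0.50 giving an adjusted p of 0.032. Gstm3 was 2.97-fold lower in DBZ (12.08 and 12.20 against 10.74 and 10.41; adjusted p = 0.0045) and Gstm1 2.14-fold lower (10.73 and 10.82 against 9.74 and 9.61; adjusted p = 0.0049). Gstm6 and Gstm4 were lower by log2 differences of -1.31 and -0.64, calls lost without DBZ Sec-Pro replicate 2 for Gstm6 (-0.87) and without that array, DBZ Sec-Pro replicate 1 or Rbpj Sec-Pro replicate 1 for Gstm4 (-0.66 to -0.54). Mu-class genes are alike in sequence, and Gstm1 and Gstm3 are read here by probe sets marked _x_at and _s_at, which may bind related transcripts. How far that bears on their values was not tested.

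Among the remaining cytosolic classes, Gstt1, a theta-class enzyme, was lowest in Ent-Pro. It read 9.83 and 9.87 in ISC, 8.89 and 8.14 in Ent-Pro, 10.62 and 10.89 in ENT, 9.68 and 9.20 in DBZ Sec-Pro, and 9.51 and 10.19 in Rbpj Sec-Pro. It rose 4.72-fold from Ent-Pro to ENT (adjusted p = 0.00043). Its fall from ISC to Ent-Pro (log2 -1.33; adjusted p = 0.011) was lost without either ISC array or without Ent-Pro replicate 2 (-0.95). Its neighbour Gstt3 rose 1.88-fold in ENT (adjusted p = 0.0018), and Gstt2 passed none of the 5 pairwise tests.

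Gstk1, the kappa-class enzyme of mitochondria and peroxisomes, rose 4.18-fold from Ent-Pro (9.48 and 8.71) to ENT (10.93 and 11.39; adjusted p = 0.0011). It was 2.96-fold lower in DBZ Sec-Pro (9.72 and 8.92) than in Rbpj Sec-Pro (10.69 and 11.09; adjusted p = 0.017), a call lost without DBZ Sec-Pro replicate 2. Gsto1, an omega-class enzyme that reduces dehydroascorbate, rose 2.26-fold in ENT, from 12.93 and 12.90 to 14.13 and 14.05 (adjusted p = 0.00054). In the pi class, Gstp1 lay between 13.31 and 13.75 on all arrays. Gstp3 was 2.24-fold lower in DBZ Sec-Pro (5.91 and 6.07) than in Ent-Pro (6.88 and 7.44; adjusted p = 0.0045), and this held without each array in turn. Gstz1, which acts in tyrosine breakdown, did not pass the F test (adjusted p = 0.32).

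All 3 microsomal transferases rose from ISC to Ent-Pro, and only Mgst3 was called higher in ENT than in Ent-Pro. Mgst3 rose in both steps of the absorptive series, from 11.14 and 10.83 in ISC to 12.73 and 12.84 in Ent-Pro (3.49-fold; adjusted p = 0.00024) and 13.60 and 13.72 in ENT (1.83-fold; adjusted p = 0.0027). Mgst1 had its highest mean in Ent-Pro, at 12.98 and 13.48, against 12.80 and 12.81 in ENT and 12.48 and 12.43 in ISC. The fall to ENT (log2 -0.42) did not pass the test. The rise from ISC (0.78) was lost without ISC replicate 2 (0.75) or Ent-Pro replicate 2 (0.52). Mgst1 was lowest in DBZ Sec-Pro, at 11.79 and 11.57, which is 2.93-fold below Ent-Pro (log2 -1.55 ± 0.17, limma adjusted p = 0.00049). Mgst1 was also 1.84-fold lower in DBZ than in Rbpj Sec-Pro (12.49 and 12.63; adjusted p = 0.013); this call was lost without DBZ Sec-Pro replicate 2. The gene's second probe set lay below the background floor on all arrays (3.68 to 4.07) and does not bear on it. Mgst2, which can form leukotriene C, was 1.7-fold lower in DBZ than in Rbpj Sec-Pro (adjusted p = 0.02), a call lost without Rbpj Sec-Pro replicate 1 or DBZ Sec-Pro replicate 2.

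Of the 9 glucuronosyltransferase genes with their own probe set, 5 were above background, and the arrays within a group lay far apart for Ugt2b5 and Ugt2b38. Ugt2b5 read 4.51 and 4.68 in ISC, 6.92 and 5.89 in Ent-Pro, 8.07 and 9.38 in ENT, 6.04 and 4.50 in DBZ Sec-Pro, and 7.91 and 9.40 in Rbpj Sec-Pro. ENT and Rbpj Sec-Pro did not overlap the other 3 groups. It was 10.4-fold lower in DBZ than in Rbpj Sec-Pro (log2 -3.38 ± 0.66; adjusted p = 0.013) and 5.02-fold higher in ENT than in Ent-Pro (adjusted p = 0.021). The first call was lost without DBZ Sec-Pro replicate 2 (log2 -2.61) and the second without Ent-Pro replicate 2 (1.81) or ENT replicate 2 (1.67).

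Ugt2b38 was near background in ISC (4.06 and 4.25), Ent-Pro (4.45 and 4.29) and DBZ Sec-Pro (4.07 and 4.17). It read 6.04 and 8.68 in ENT and 6.20 and 8.72 in Rbpj Sec-Pro, so replicate 2 of each carried most of the signal. ENT was at least 5.87-fold above Ent-Pro (adjusted p = 0.025), Rbpj Sec-Pro at least 6.29-fold (adjusted p = 0.033), and DBZ Sec-Pro at least 6.23-fold below Rbpj Sec-Pro (adjusted p = 0.035). Without ENT replicate 2 the log2 difference in ENT was 1.68 and its call was lost, as it was without either Ent-Pro array. The calls for Rbpj Sec-Pro were each lost without 7 of the arrays, and without Rbpj Sec-Pro replicate 2 the values were 1.84 against Ent-Pro and -2.08 for DBZ against Rbpj Sec-Pro. Ugt2b34 rose 2.34-fold from ISC (10.73 and 10.42) to Ent-Pro (11.89 and 11.71; adjusted p = 0.01), a call lost without ISC replicate 2 or Ent-Pro replicate 1. Ugt2a3 varied across groups (adjusted p = 0.019 in the F test), from 8.57 and 8.24 in ISC to 10.42 and 10.93 in ENT.

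Among the sulfotransferases, Sult1b1 and Sult2b1 rose in both steps of the absorptive series. Sult1b1, which acts on phenols and thyroid hormones, read 8.71 and 8.57 in ISC, 11.15 and 10.76 in Ent-Pro, and 12.69 and 12.85 in ENT. It rose 4.99-fold in the first step (log2 2.32 ± 0.26; adjusted p = 0.00058) and 3.52-fold in the second (1.81 ± 0.26; adjusted p = 0.00071). Sult2b1, known for sulfating cholesterol, read 7.98 and 7.97, then 9.85 and 9.69, then 11.92 and 11.78. Its steps were 3.48-fold (adjusted p = 0.00054) and 4.22-fold (adjusted p = 0.00011). For both genes the 3 groups did not overlap, and these 4 calls held without each array in turn.

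In the Sec-Pro groups Sult1b1 read 11.70 and 11.49 with Rbpj deleted and 10.96 and 10.07 with Dibenzazepine, a 2.12-fold difference (adjusted p = 0.027) whose call was lost without Rbpj Sec-Pro replicate 1 (log2 -0.98) or DBZ Sec-Pro replicate 2 (-0.64). Sult1d1, a catecholamine-sulfating enzyme in mice, lies next to Sult1b1. It rose 2.91-fold from ISC (10.20 and 9.79) to Ent-Pro (11.62 and 11.45; adjusted p = 0.024), a call lost without any 1 of the ISC and Ent-Pro arrays. Sult1a1, a phenol sulfotransferase, was highest in ISC (6.02 and 5.38) and near background in Rbpj Sec-Pro. Sult1c2, Sult4a1 and Sult5a1 did not pass the F test.

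**Figure D4:**
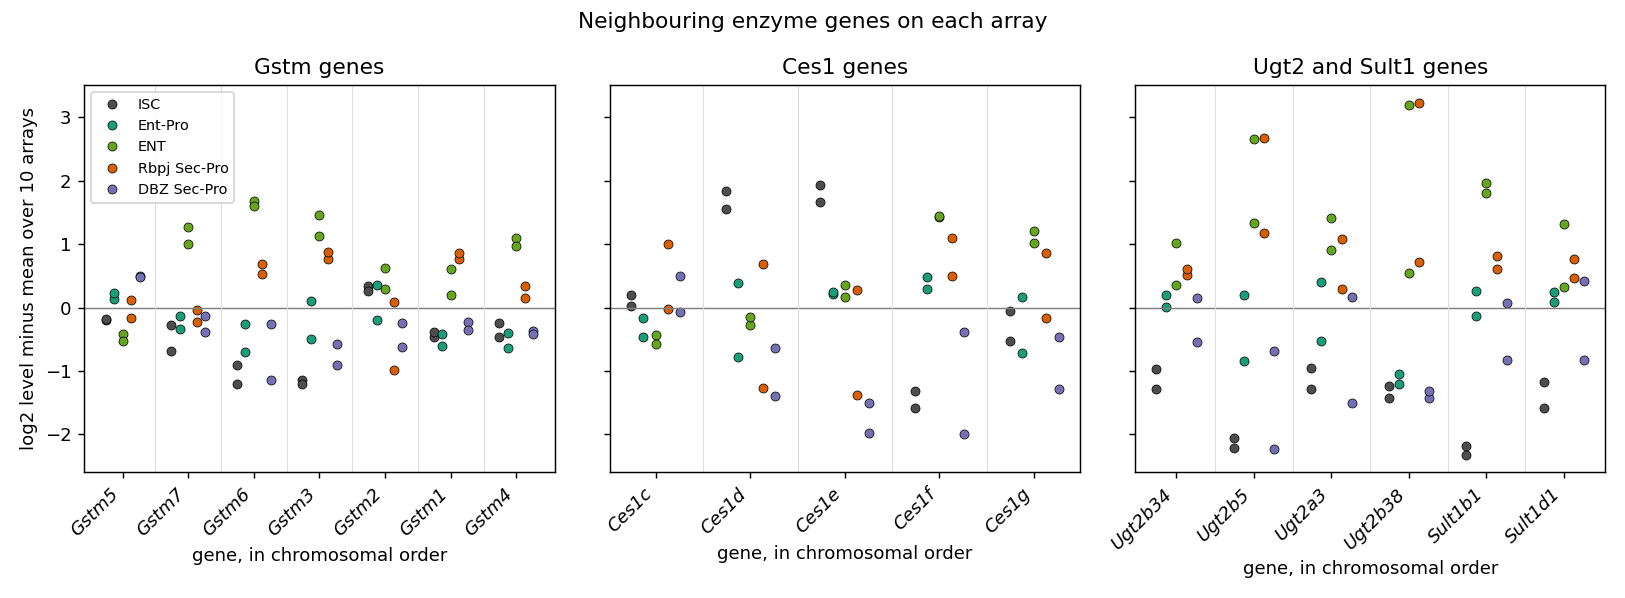
Log2 level minus the gene's mean over the 10 arrays, for members of 3 chromosomal runs in RefSeq order, with 2 dots per group; members near background in every group are left out of the third panel. Gstm5 is lowest in ENT while Gstm3, Gstm4 and Gstm6 are highest there, Ces1d and Ces1e are highest in ISC while Ces1f and Ces1g are highest in ENT, and Ugt2b5, Ugt2b38 and Sult1b1 are high in ENT.

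The carboxylesterases, which split esters and amides of drugs and lipids, were divided within a single run of neighbours on chromosome 8. Ces1e read 8.87 and 8.61 in ISC, 7.16 and 7.18 in Ent-Pro, 7.11 and 7.29 in ENT, 5.44 and 4.96 in DBZ Sec-Pro, and 5.57 and 7.22 in Rbpj Sec-Pro. It was highest in ISC without overlap. Ces1e was 2.98-fold lower in Ent-Pro than in ISC (adjusted p = 0.026) and 3.91-fold lower in DBZ Sec-Pro than in Ent-Pro (adjusted p = 0.014), calls lost without either array of ISC or Ent-Pro for the first, and without either Ent-Pro array or DBZ Sec-Pro replicate 2 for the second. Its neighbour Ces1d, known for hydrolysing stored triacylglycerol, was also highest in ISC (9.20 and 8.91) and fell 3.71-fold to Ent-Pro (7.75 and 6.58; adjusted p = 0.045), a call lost without any 1 of 7 arrays, with a log2 value of -1.30 where Ent-Pro replicate 2 was left out.

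The next gene in the run, Ces1f, ran in the opposite direction. It read 8.22 and 8.48 in ISC, 10.28 and 10.10 in Ent-Pro, and 11.23 and 11.25 in ENT, rising 3.57-fold in the first step (adjusted p = 0.013); this call was lost without any 1 of the ISC and Ent-Pro arrays, at values of 1.70 to 1.97. In the Sec-Pro groups Ces1f read 10.30 and 10.90 with Rbpj deleted and 9.41 and 7.81 with Dibenzazepine (3.96-fold; adjusted p = 0.019), lost without DBZ Sec-Pro replicate 2 (log2 -1.19). Ces1g rose 2.62-fold from Ent-Pro (6.18 and 5.30) to ENT (7.23 and 7.03; adjusted p = 0.025), lost without either ENT array or Ent-Pro replicate 2.

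Of the Ces2 genes, the carboxylesterases known best from the intestine, Ces2e rose in both absorptive steps. It read 8.57 on both ISC arrays, 10.55 and 10.27 in Ent-Pro and 11.81 and 11.78 in ENT, steps of 3.58-fold (adjusted p = 0.0016) and 2.62-fold (adjusted p = 0.0032) that held without each array in turn. Ces2g separated DBZ Sec-Pro from the other groups. It read 7.66 and 7.37 there, against 9.18 and 9.55 in Rbpj Sec-Pro, 9.82 and 9.26 in Ent-Pro, 10.55 and 10.14 in ENT, and 9.59 and 9.44 in ISC. Ces2g was 4.06-fold lower than in Ent-Pro (log2 -2.02 ± 0.23; adjusted p = 0.00056) and 3.59-fold lower than in Rbpj Sec-Pro (adjusted p = 0.0034). Ces2a was 3.17-fold lower in DBZ than in Rbpj Sec-Pro (9.39 and 8.84 against 10.28 and 11.28; adjusted p = 0.02), lost without DBZ Sec-Pro replicate 2.

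The epoxide hydrolases differed from each other in ISC. Ephx1, the microsomal enzyme that opens xenobiotic epoxides, read 8.80 and 8.72 in ISC, 7.11 and 6.96 in Ent-Pro, 8.11 and 8.68 in ENT, 7.45 and 7.30 in DBZ Sec-Pro, and 10.28 and 9.14 in Rbpj Sec-Pro. It fell 3.3-fold from ISC to Ent-Pro (log2 -1.72 ± 0.33; adjusted p = 0.0053), was 6.37-fold higher in Rbpj Sec-Pro than in Ent-Pro (adjusted p = 0.0015) and 5.03-fold lower in DBZ than in Rbpj Sec-Pro (adjusted p = 0.0049). These 3 calls held without each array in turn. The 2.57-fold rise to ENT (adjusted p = 0.0096) was lost without Ent-Pro replicate 2 or ENT replicate 2. Ephx2, the soluble enzyme that hydrolyses epoxides of fatty acids, was low in ISC, at 9.82 and 9.56. It read 11.04 and 10.19 in Ent-Pro and 12.37 and 12.55 in ENT, a 3.58-fold rise (adjusted p = 0.0048). Ephx2 was 3.2-fold lower in DBZ (10.67 and 9.44) than in Rbpj Sec-Pro (11.62 and 11.84; adjusted p = 0.023), a call lost without Rbpj Sec-Pro replicate 1 or DBZ Sec-Pro replicate 2 (log2 -1.06).

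Among the aldehyde dehydrogenases, Aldh1a1 and Aldh1a7 set ISC apart from the other groups. Aldh1a1, which oxidises retinaldehyde to retinoic acid, read 8.31 and 8.30 in ISC. It read 11.43 and 10.41 in Ent-Pro, 11.39 and 12.12 in ENT, and 11.11 and 10.07 in DBZ Sec-Pro, with a mean of 12.22 in Rbpj Sec-Pro; every one of these arrays lay above ISC. The rise from ISC to Ent-Pro was 6.11-fold (log2 2.61 ± 0.42; adjusted p = 0.0024). Aldh1a7, its mouse neighbour, read 6.91 and 6.13 in ISC and 9.71 and 8.90 in Ent-Pro, a 6.88-fold rise (2.78 ± 0.38; adjusted p = 0.0012). Both calls held without each array in turn. The start-site windows of this pair, shown above, share a run of 65 bases. Because the genes are closely alike, whether the probe sets bind both transcripts was not tested.

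Both genes were lower in DBZ than in Rbpj Sec-Pro, Aldh1a1 3.1-fold (adjusted p = 0.033) and Aldh1a7 2.63-fold (adjusted p = 0.039), calls lost without any 1 of the 4 Sec-Pro arrays for Aldh1a7 and of 5 arrays for Aldh1a1, which gave log2 -1.11 without DBZ Sec-Pro replicate 2. Aldh1a2 and Aldh1a3, retinaldehyde-oxidising relatives of Aldh1a1, were dim. Aldh1a2 read 4.10 to 4.85 and Aldh1a3 4.50 to 5.74 over the 10 arrays.

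Aldh1b1, a mitochondrial enzyme that oxidises acetaldehyde, ran against Aldh1a1. It read 13.45 and 13.20 in ISC, 12.64 on both Ent-Pro arrays, 11.29 and 10.95 in ENT, 12.18 and 12.12 in DBZ Sec-Pro, and 10.48 and 11.97 in Rbpj Sec-Pro. The fall from Ent-Pro to ENT was 2.87-fold (log2 -1.52 ± 0.39; adjusted p = 0.012) and was lost without either Ent-Pro array or ENT replicate 2 (-1.35). Its lower level in Rbpj Sec-Pro than in Ent-Pro (adjusted p = 0.029) was lost without either Ent-Pro array (log2 -1.41 in both fits). Its size moved with the Rbpj Sec-Pro arrays: the log2 difference was -0.66 without replicate 1 and -2.16 without replicate 2, and the call was kept in both. Aldh2, the main mitochondrial acetaldehyde oxidiser, rose instead, from 10.51 and 10.54 in Ent-Pro to 11.85 and 11.87 in ENT (2.52-fold; adjusted p = 0.00071).

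Of the other aldehyde dehydrogenases, 3 rose from Ent-Pro to ENT by more than 2-fold. Aldh1l1, which oxidises a formyl folate, rose 2.3-fold (9.24 and 9.29 to 10.51 and 10.43; adjusted p = 0.00017), Aldh4a1, of proline breakdown, 2.2-fold (adjusted p = 0.0024), and Aldh3b1 2.35-fold (adjusted p = 0.0012). Aldh7a1, of lysine breakdown, fell instead, by 0.70 on the log2 scale (7.38 and 7.33 to 6.71 and 6.60; adjusted p = 0.0048). That gene's second probe set gave 0.48 for the same comparison, but read only 4.79 to 4.98 outside ENT, within the range of the background floor. Aldh7a1 was the 1 member called higher in DBZ Sec-Pro than in Ent-Pro (0.79; adjusted p = 0.0066), a call lost without DBZ Sec-Pro replicate 2 or Ent-Pro replicate 2; the dim second probe set gave 0.00.

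Aldh3a2, which oxidises fatty aldehydes, was lowest in ISC (8.65 and 8.18) and highest in Rbpj Sec-Pro (10.15 and 10.38). Its rise from ISC to Ent-Pro (0.87; adjusted p = 0.016) was lost without ISC replicate 2 or Ent-Pro replicate 1. Aldh8a1, an enzyme of the kynurenine pathway, was 2.81-fold lower in DBZ Sec-Pro (5.14 and 4.98) than in Ent-Pro (6.77 and 6.34; adjusted p = 0.0038). It was also lower in ENT than in Ent-Pro (-0.71; adjusted p = 0.047), a call lost without any 1 of 8 arrays. Aldh16a1 was 1.86-fold lower in DBZ Sec-Pro than in Ent-Pro (9.22 and 9.20 against 10.09 and 10.13; adjusted p = 0.00092), and this call and the 2.81-fold one of Aldh8a1 held without each array in turn. Aldh18a1, which makes proline from glutamate, was highest in ISC (12.69 and 12.55). Aldh9a1, of carnitine synthesis, lay between 12.41 and 13.18 on all arrays, and Aldh6a1 and Aldh3a1 did not pass the F test.

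The aldo-keto reductases, which reduce carbonyls to alcohols, passed the F test in 5 of 14 cases (35.7%, against 66.1% of all genes). Akr1c13, a hydroxysteroid dehydrogenase, rose 2.32-fold from ISC (10.46 on both arrays) to Ent-Pro (11.83 and 11.51; adjusted p = 0.0011) and held without each array in turn. It lies in a run of 8 Akr1 members on chromosome 13, of which none of the other 7 passed the F test. Akr1c12, in the same run, lay at the threshold (F test adjusted p = 0.05), with 10.87 and 10.60 in ISC and 11.46 and 11.35 in Ent-Pro. A probe set shared by Akr1c12 and Akr1c13 read 11.34 and 11.37 in ISC and 12.53 and 12.31 in Ent-Pro, and was not tested. Akr1a1, which takes part in ascorbate synthesis in mice, rose 1.32-fold from Ent-Pro to ENT (13.71 and 13.75 to 14.14 and 14.12; adjusted p = 0.02), lost without any 1 of the Ent-Pro and ENT arrays. Akr1d1, a bile acid synthesis enzyme, was called higher in ENT, but was near background in every group.

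Akr1b8, the mouse relative of a human reductase of retinaldehyde and lipid aldehydes, differed widely between the Rbpj Sec-Pro arrays. It read 10.62 and 7.90 in Rbpj Sec-Pro, against 6.87 and 6.47 in DBZ Sec-Pro, 7.80 and 8.95 in Ent-Pro, 8.12 and 8.38 in ENT, and 6.61 and 6.78 in ISC. The difference between DBZ and Rbpj Sec-Pro passed the test (log2 -2.59; adjusted p = 0.043). It was -1.23 without Rbpj Sec-Pro replicate 1 and -3.95 without replicate 2, and the call was lost without 9 of the 10 arrays. Akr7a5, which reduces succinic semialdehyde, was highest in ISC (12.03 and 11.94); its lower values in Rbpj and DBZ Sec-Pro than in Ent-Pro were lost without 9 and 8 of the arrays.

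**Figure D5:**
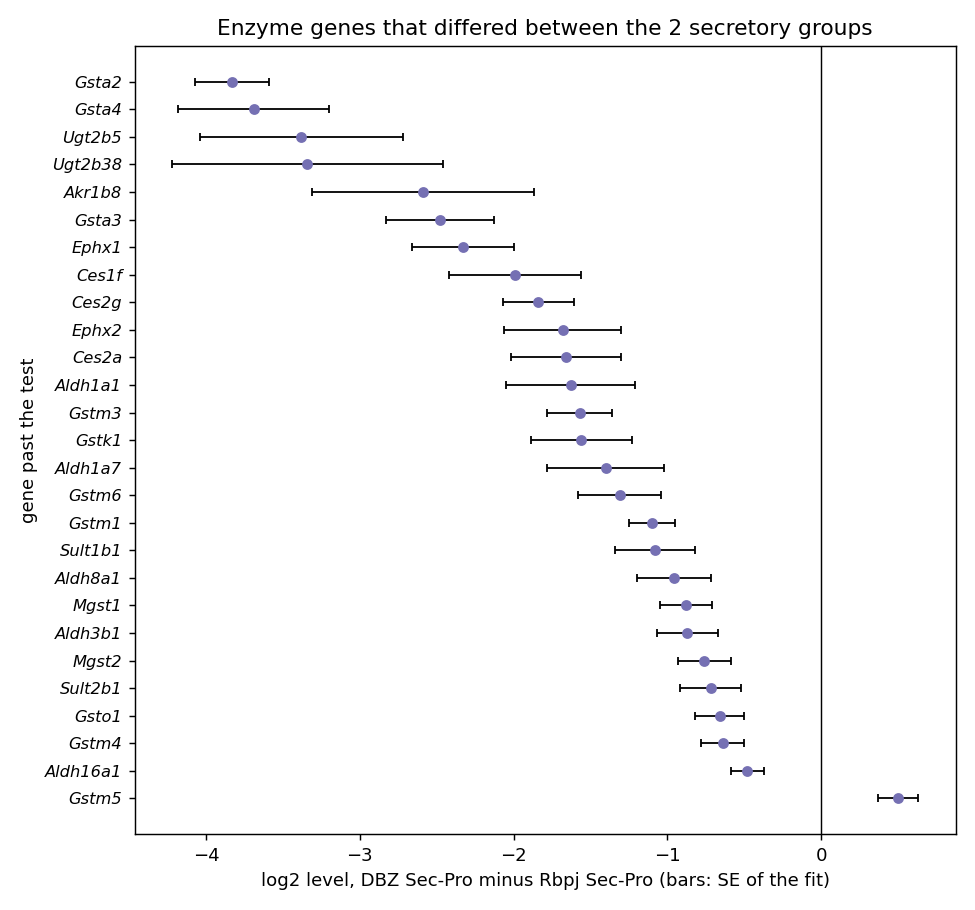
Log2 level in DBZ Sec-Pro minus Rbpj Sec-Pro (x axis; bars show the SE of the fit) for the 27 members called different, in order. All but Gstm5 (0.50) lie below 0, from Gsta2 at -3.83 to Aldh16a1 at -0.48.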

How the data were processed

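Total RNA of 5 groups of mouse intestinal cells, 2 arrays each, was measured on 10 one-colour Affymetrix arrays. The deposited table holds log2 values, between 2.90 and 15.18, of 22690 probe sets. RMA and MAS5 are named in the submitters' processing notes without a role or a version. Array medians were 6.83 to 6.98, so the deposited log2 values were not rescaled. The number of arrays limits the precision.

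After 64 control probe sets were left out, 20380 probe sets carried a single gene symbol, 691 carried more, and 1555 stayed unnamed here. The probe set with the highest mean stood for a gene, giving 12393 genes without a filter on dim ones. All arrays entered 1 model of 5 group means in limma 3.58.1 (R 4.3.3; lmFit and eBayes, 5 residual and 3.75 prior degrees of freedom), with Benjamini-Hochberg adjustment over all genes and a threshold of 0.05. Folds against a group near background (below the brightest of 3 TrpnX control probe sets plus 1) are lower bounds. The fit was tested on simulated data. The members, pathway lists, markers and tests were chosen with earlier results of these data known. The rule for named genes took, per comparison, the 6 largest changes in each direction among called members without overlap, the brightest and the most variable member of each family, and a fixed list; other members named were chosen after their values were seen, as were the 5 start-site sequences. Gsta1 and Ugt1a1 had no probe set of their own. Alternatives covered scaling, probe set choice, dim genes, the spread estimate, the arrays fitted, a replicate block and leaving out each array.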

Additional observations from a re-analysis of the deposited data

Results flagged for a closer look

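Rbpj Sec-Pro and DBZ Sec-Pro were each set against the same Ent-Pro arrays. Ent-Pro came from Atoh1-/- crypts, so neither comparison isolates the deletion or the drug. A direct limma test of DBZ Sec-Pro minus Rbpj Sec-Pro called 23 of the 43 members named by rule. The rule picked members partly by their called changes in this comparison, so the 23 are no independent count. Over all 83 members 31.3% were lower and 1.2% higher in DBZ Sec-Pro, against 7.08% and 9.34% of all genes. For the conjugating enzymes the log2 differences were -3.83 for Gsta2, -3.69 for Gsta4, -2.48 for Gsta3, -1.56 for Gstk1, -1.31 for Gstm6, -1.10 for Gstm1, -0.66 for Gsto1, -0.88 for Mgst1 and -0.76 for Mgst2, with Gstm5 at 0.50. The glucuronosyltransferases Ugt2b5 and Ugt2b38 gave -3.38 and -3.34, and the sulfotransferases Sult1b1 and Sult2b1 gave -1.08 and -0.72. Among hydrolases the values were -2.33 for Ephx1, -1.68 for Ephx2, -1.99 for Ces1f, -1.84 for Ces2g and -1.66 for Ces2a. Among carbonyl enzymes they were -2.59 for Akr1b8, -1.63 for Aldh1a1, -1.40 for Aldh1a7 and -0.96 for Aldh8a1.

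Against Ent-Pro, Gsta2 was 2.98 in Rbpj Sec-Pro and -0.85 in DBZ Sec-Pro, Gsta3 was 1.30 and -1.18, and all 4 values passed the test. The -0.85 of Gsta2 became -0.52 without DBZ Sec-Pro replicate 2, and its call was lost without any 1 of 5 arrays. Gsta4 was 3.24 and -0.45, Ephx1 2.67 and 0.34, and Gstk1 1.79 and 0.23, where the DBZ values did not pass. Ces2g was -0.18 and -2.02, Ces2a 0.34 and -1.32, and Ces1f 0.41 and -1.58, where the Rbpj values did not pass. Of the DBZ values, that of Ces2g held without each array in turn, that of Ces2a was lost without either DBZ Sec-Pro or either Ent-Pro array, and that of Ces1f was lost without any 1 of 7 arrays, with -0.78 where DBZ Sec-Pro replicate 2 was left out.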

How the results depend on the processing

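Of 104 calls for members named by rule, 73 were lost under at least 1 alternative; over all alternatives, 3 named values changed sign, all with a gene's second-highest probe set. Aldh7a1 gave 0.48 (ENT versus Ent-Pro) and 0.00 (DBZ Sec-Pro versus Ent-Pro), and Mgst1 gave 0.09 (DBZ versus Rbpj Sec-Pro). Those probe sets were dim: that of Mgst1 lay below the background floor on all arrays, and that of Aldh7a1 at 4.79 to 4.98 outside ENT. Members lower in Rbpj Sec-Pro than in Ent-Pro numbered 3 after cyclic loess, 4 among genes above the median level and 1 with only the 2 groups fitted. That last fit gave 6 higher. Over all genes, lower calls numbered 1359, 1375 and 320 in these settings, against 2094 in the main fit. The last fit gave 385 higher, against 1161. Members higher in DBZ Sec-Pro than in Ent-Pro numbered 2 after loess, 2 among genes above the median level, and 0 when probe sets were averaged (3 at an unadjusted p under 0.05) or the second-highest one (2). Fitting only the Sec-Pro groups gave 0 higher (1 at an unadjusted p under 0.05) and 4 lower in DBZ, against 43 and 54 over all genes. Fewer samples then estimate the spread. Among genes above the median level the members' median was 0.47 (Ent-Pro versus ISC), 0.80 (ENT versus Ent-Pro), 0.39 (Rbpj Sec-Pro versus Ent-Pro) and -0.64 (DBZ versus Rbpj Sec-Pro).

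Without each array in turn, the F test called 50 to 61 members. Higher and lower counts ranged over 8 to 22 and 2 to 10 (Ent-Pro versus ISC), 20 to 31 and 2 to 4 (ENT versus Ent-Pro), 5 to 18 and 0 to 11 (Rbpj Sec-Pro versus Ent-Pro), 0 to 3 and 5 to 17 (DBZ Sec-Pro versus Ent-Pro), and 0 to 5 and 7 to 24 (DBZ versus Rbpj Sec-Pro). The medians ranged over 0.05 to 0.13, 0.23 to 0.30, 0.01 to 0.11, -0.37 to -0.09 and -0.53 to -0.19. Calls over all genes also rose and fell in these fits, so a shift in a member count alone says little about the members. In some of these fits no member was called higher in DBZ than in Rbpj Sec-Pro, though genes outside the members were.

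Same-numbered arrays of different groups did not deviate together (correlations -0.19 to 0.17), so the numbers were not taken as pairs. With the replicate number as a block, 53 members passed the F test. The higher and lower counts were 17 and 7, 29 and 3, 15 and 6, 1 and 11, and 1 and 25 in the same order. Over all genes they were 1413 and 1568, 2175 and 2433, 1106 and 1830, 1042 and 1057, and 951 and 762.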

Other observations

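Partners of these enzymes were counted from lists whose members lie outside the symbol rule. From Ent-Pro to ENT, 9 of 18 measured genes for glutathione and NADPH redox partners rose, against 18.5% of all genes. Me1, the cytosolic malic enzyme that makes NADPH, rose by 4.69 (log2; limma adjusted p = 5.2e-05), Srxn1, a sulfiredoxin, by 1.88 (adjusted p = 4e-04) and Cbr3, a carbonyl reductase, by 1.65 (adjusted p = 0.004). Of 11 efflux carriers 7 rose and Abcc1 fell; Slc51a, a subunit of the basolateral bile acid carrier, rose by 2.41 (adjusted p = 9.5e-05). Of 13 genes that supply cosubstrates 5 rose and 2 fell, with Papss2, which makes the sulfate donor, at 2.33 (adjusted p = 0.0018) and Slc35d1, a carrier of nucleotide sugars, at 1.66 (adjusted p = 5.7e-05). Of 15 retinoid genes 7 rose and 2 fell, with Scarb1, a carotenoid and lipid receptor, at 3.35 (adjusted p = 4.9e-05) and Rbp2, the intestinal retinol-binding protein, at 1.99 (adjusted p = 0.00023). Of 9 other carbonyl and alcohol genes 4 rose, led by Hagh, a glyoxalase, at 2.34 (adjusted p = 8.1e-05).

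In DBZ Sec-Pro 8 of 12 sensors of foreign compounds and bile acids were lower than in Ent-Pro, against 9.77% of all genes. Ppara, a fatty acid receptor, differed by -2.23 (adjusted p = 2.2e-05), Vdr by -1.35 (adjusted p = 0.0033) and Ahr, the dioxin receptor, by -1.32 (adjusted p = 0.00093). In Rbpj Sec-Pro 2 of the 12 were lower and 1 was higher, against 16.9% and 9.37% of all genes. Set against Rbpj Sec-Pro directly, 5 of 12 sensors were lower in DBZ Sec-Pro, against 7.08% of all genes. Nqo1, a quinone reductase, was lower by the same -2.47 against Ent-Pro (adjusted p = 5.1e-05) and against Rbpj Sec-Pro (adjusted p = 0.00059). The part of cell content in these differences was not tested.

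In the step from ISC to Ent-Pro, 9 of 13 cosubstrate genes and 8 of 18 redox partners rose, against 12.1% of all genes. Of the same lists, 2 cosubstrate genes and 0 redox partners fell, against 13.5% of all genes. Of 15 retinoid genes 4 rose and 2 fell, with a median log2 difference of -0.13. Papss2 rose by 3.18 (adjusted p = 0.00095), Srxn1 by 1.83 (adjusted p = 0.0011) and Rbp2 by 3.32 (adjusted p = 7e-05).

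Probe sets that name several genes were left out of the counts, but 7 of them carry enzymes of these families. The 3 probe sets shared by Ugt1a genes, the main glucuronosyltransferase locus, read 10.54 to 12.54 in ISC, 12.10 to 13.35 in Ent-Pro, 12.94 to 13.97 in ENT, 11.79 to 13.53 in Rbpj Sec-Pro and 10.20 to 12.29 in DBZ Sec-Pro. On each of the 3, both ENT arrays lay above all others and both DBZ Sec-Pro arrays lay below both Rbpj Sec-Pro arrays. A probe set shared by Gsta1, Gsta2 and Gm3776 read 13.60 and 13.59 in Rbpj Sec-Pro, 13.18 and 13.38 in ENT, 10.59 and 9.84 in DBZ Sec-Pro, 11.55 and 10.43 in Ent-Pro, and 7.43 and 7.12 in ISC. These values were not tested.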
